A study of Mus musculus with 12 samples.

Results

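Axon guidance cues are secreted or membrane-bound proteins that steer growing axons, migrating cells and forming synapses through receptors on the responding cell. Semaphorins act through plexins, with neuropilins as co-receptors for most secreted semaphorins. Ephrins act through Eph receptor tyrosine kinases and can also signal back into the cell that carries them. Netrins act through Dcc and Unc5 receptors, and Slits through Robo receptors. Astrocytes carry several of these proteins at their contacts with neurons and vessels. The set described here holds the 64 protein-coding genes whose symbols place them among semaphorins of classes 3 to 7, plexins, neuropilins, ephrins, Eph receptors, netrins, Slits 1 to 3 and Robos 1 to 4, out of 45777 genes in the table, 21949 of them protein-coding. It has 20 semaphorins, 9 plexins, 2 neuropilins, 9 EphA and 5 EphB receptors, 5 ephrin-A and 3 ephrin-B genes, 4 netrins, 3 Slits and 4 Robos. Members were taken by symbol and biotype, with no use of measured values, and 1 matching symbol that is not protein-coding was left out.

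The study measured polyadenylated RNA in astrocytes purified from mouse cerebral cortex on postnatal day 14, with 3 libraries in each of 4 groups. Cre- animals carried the floxed glucocorticoid receptor gene (Nr3c1 flox/flox) without a recombinase. AGR cKO animals carried in addition Aldh1l1-CreERT2, a tamoxifen-dependent Cre driven by the promoter of an astrocyte gene. Pups of the ESD groups, exposed to early life stress, were kept apart from the dam for 3 hours daily between postnatal days 1 and 14, and pups of the control groups were not. Each genotype was kept under both conditions, which gives the 4 groups. Every group, Cre- included, received 4-hydroxytamoxifen on days 5 to 7, and every animal carried the floxed allele. The comparisons ask what loss of the receptor in astrocytes does to expression, and whether the response to early separation differs without it. No source used here ties each library to its own animal, so p-values measure the spread between libraries, which may be technical.

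Libraries held 42603546 to 52130081 counts. Nr3c1 stood between 194 and 238 CPM, counts scaled to a common library size, in the 6 Cre- libraries and between 68.2 and 109 in the 6 AGR cKO libraries, with no overlap. The 12 astrocyte markers summed to 43360 to 58247 CPM per library, led by the glutamate transporter Slc1a2, and the 12 neuronal markers to 40.3 to 86.9. Of the astrocyte markers edgeR called 3 for genotype, Aqp4 higher and Aldoc and Gjb6 lower in AGR cKO. Endothelial markers summed to 227 to 1934 CPM and microglial markers to 148 to 1022, and both were highest in Cre- control 1. Mural and fibroblast markers, led by Rgs5, summed to 1863 to 5867. The defining oligodendrocyte markers Mog, Ermn and Opalin and the choroid plexus marker Ttr were at 0 in at least 1 library. In bulk RNA, fewer cells of a type and less RNA per cell cannot be told apart.

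Levels between genes were compared in TPM, a unit scaled by transcript length. Of the 64 members, 35 averaged at least 10 TPM over the 12 libraries, 17 between 1 and 10, and 12 under 1. Together they took 0.348% to 0.451% of a library's counts. The 5 highest members held 49.4% of the summed TPM of the set. They were Plxnb1, the receptor of Sema4d, at 346 TPM (286 to 400 over libraries), the transmembrane semaphorin Sema6d at 246 (201 to 291), Sema4a at 143 (125 to 157), the plexin Plxnb2 at 131 (119 to 151) and Sema4b at 106 (85.4 to 133). Of all genes measured, 319 stood above Plxnb1.

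**Figure D1:**
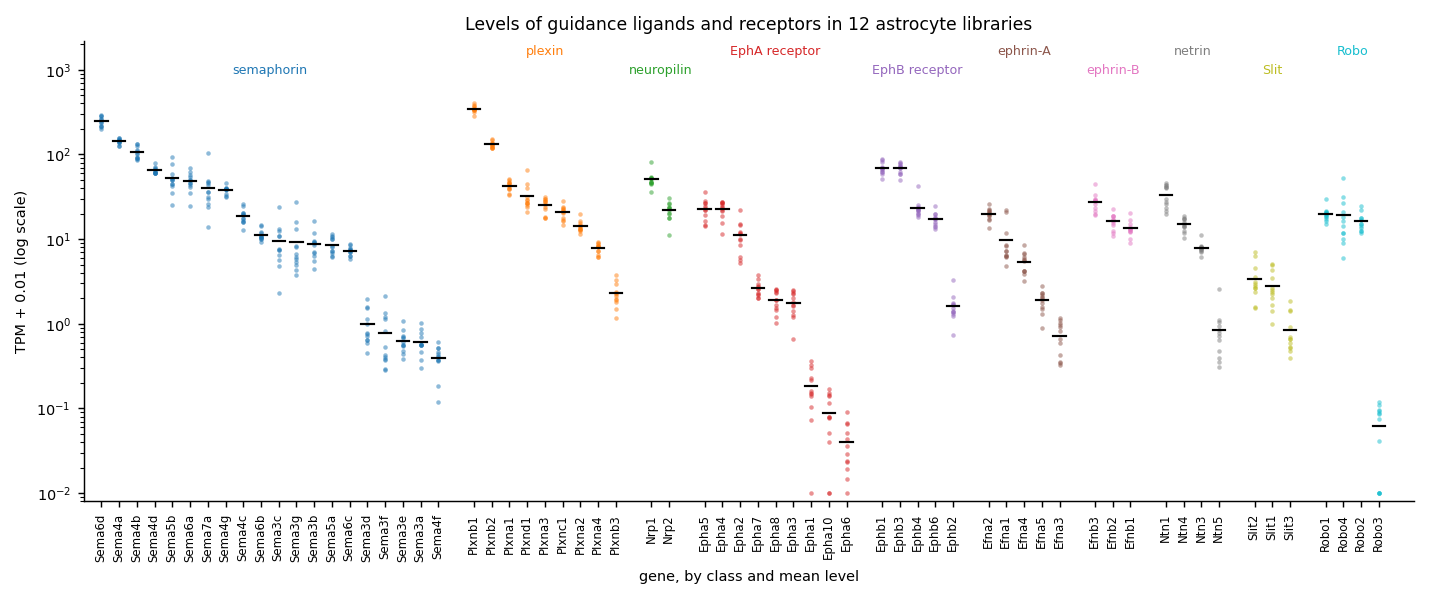
Deposited TPM plus 0.01, on a log axis, of the 64 guidance genes grouped by class and ordered by mean within each class. Each point is 1 of 12 libraries and each black line the mean of a gene, and Plxnb1 at 346 TPM and Sema6d at 246 TPM stand highest.

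The next 5 were the ephrin-B receptors Ephb1 at 69.3 TPM (51.8 to 87.9) and Ephb3 at 68.6 (49.7 to 82.3), Sema4d at 64.7 (59.6 to 78.6), Sema5b at 52.0 (25.2 to 94.1) and the co-receptor Nrp1 at 51.0 (36.0 to 82.2). Their ranges over libraries overlapped, so their order is not firm. By class, summed mean levels were 815 TPM for semaphorins, 622 for plexins, 180 for EphB receptors, 72.9 for neuropilins, 63 for EphA receptors, 57.2 for ephrin-B genes, 57.1 for netrins, 55.1 for Robos, 37.5 for ephrin-A genes and 7.03 for Slits. The leading genes of the remaining classes were the netrin Ntn1 at 33.4 TPM (19.7 to 45.9), the ephrin-B gene Efnb3 at 27.6 (19.4 to 44.7), Epha5 at 22.8 (14.4 to 35.6), Efna2 at 19.9 (13.5 to 25.8), Robo1 at 19.8 (15.2 to 29.8) and Slit2 at 3.40 (1.54 to 7.01). Levels were thus spread unevenly over cue and receptor: plexins stood near the semaphorins in sum, while Slits stood far below the Robos.

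The lowest members were Epha6 at 0.0296 TPM, Robo3 at 0.0523, Epha10 at 0.0787 and Epha1 at 0.175. Robo3, which counters Slit signalling in commissural axons, had counts in 8 libraries and did not reach the minimum for testing. Epha6 and Epha1 had counts in 11 libraries and Epha10 in 10. The other 60 members had counts in all 12 libraries, and 63 members were tested.

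The promoter windows of 4 of the genes called below are shown for their sequence context. Those of Efna4 and Epha5, also called, are not shown and held neither motif described next. The targeted gene encodes a DNA-binding receptor, so the letters of its core hexamer, AGAACA, and of the spaced palindrome core, ACANNNTGT, were searched on both strands. The motifs can overlap, and capitals mark a match as it reads on the printed strand. Windows run from 250 bases before to 50 bases after a transcription start (RefSeq, GRCm38.p6), printed 5′ to 3′ along the gene's strand.
Epha4, chr1:77515039-77515338, minus strand: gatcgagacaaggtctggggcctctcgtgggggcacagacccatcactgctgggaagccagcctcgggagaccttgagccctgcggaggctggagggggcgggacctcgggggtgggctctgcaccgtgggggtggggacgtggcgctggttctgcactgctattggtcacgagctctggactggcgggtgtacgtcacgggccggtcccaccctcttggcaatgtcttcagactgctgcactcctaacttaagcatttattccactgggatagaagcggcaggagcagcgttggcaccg
Plxna3, chrX:74328816-74329115, plus strand: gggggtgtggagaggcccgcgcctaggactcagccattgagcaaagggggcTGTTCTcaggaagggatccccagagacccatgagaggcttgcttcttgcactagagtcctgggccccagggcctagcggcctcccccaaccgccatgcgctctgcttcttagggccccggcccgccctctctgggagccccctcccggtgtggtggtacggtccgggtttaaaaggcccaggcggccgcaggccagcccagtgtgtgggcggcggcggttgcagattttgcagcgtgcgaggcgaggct
Sema3d, chr5:12382916-12383215, plus strand: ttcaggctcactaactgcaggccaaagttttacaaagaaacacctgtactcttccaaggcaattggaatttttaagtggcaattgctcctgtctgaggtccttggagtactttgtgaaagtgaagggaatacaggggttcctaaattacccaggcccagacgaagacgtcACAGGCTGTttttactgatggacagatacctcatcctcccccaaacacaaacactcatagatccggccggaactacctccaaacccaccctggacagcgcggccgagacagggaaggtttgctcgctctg
Sema6d, first window, chr2:124089719-124090018, plus strand: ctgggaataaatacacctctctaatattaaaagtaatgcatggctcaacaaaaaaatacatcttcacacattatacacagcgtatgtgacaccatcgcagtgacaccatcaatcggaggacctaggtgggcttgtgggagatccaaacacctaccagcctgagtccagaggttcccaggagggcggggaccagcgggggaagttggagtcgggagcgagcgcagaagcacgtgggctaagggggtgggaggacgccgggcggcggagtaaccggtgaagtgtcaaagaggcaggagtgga
Sema6d, second window, chr2:124653331-124653630, plus strand: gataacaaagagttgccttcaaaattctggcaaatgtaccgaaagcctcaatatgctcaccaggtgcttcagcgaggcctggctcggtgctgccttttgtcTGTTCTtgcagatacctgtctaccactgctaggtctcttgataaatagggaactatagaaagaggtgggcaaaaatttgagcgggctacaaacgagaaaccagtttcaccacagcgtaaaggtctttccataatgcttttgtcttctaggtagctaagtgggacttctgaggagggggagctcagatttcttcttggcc

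Windows were given for 56 of the 64 members, 72 in all. AGAACA letters were in 8 of them (11.1%), against 19.0% of all 32851 windows, and ACANNNTGT letters in 4 (5.56%), against 6.85%. The median GC content was 64.0% in members' windows and 52.7% in all windows. The 8 windows with AGAACA letters belonged to Sema4d (3 windows), Sema6b (2), Plxnd1, Plxna3 and Sema6d (its second window). The 4 with the palindrome letters belonged to Ntn5, Sema3a, Sema3d and Sema4d. Of the genes called below, Plxna3, Sema6d and Sema3d were thus among those with a match, and most matches lay in members that were not called. Neither was found in the window of Epha4, Efna4 or Epha5 or in the first Sema6d window. These matches describe letters only.

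Genotype was compared first, averaged over control and ESD rearing, with 6 AGR cKO against 6 Cre- libraries. At an adjusted p under 0.05 (edgeR quasi-likelihood test, Benjamini-Hochberg over all 19163 genes tested), here termed called, 7 of 63 guidance genes (11.1%) changed, against 3.49% of all genes. The 6 called higher were the ephrin Efna4, the EphA receptors Epha4 and Epha5, the plexins Plxna1 and Plxna3 and the semaphorin Sema6d. Sema3d was the 1 member called lower. Over the set, 35 genes were higher and 28 lower, with a median log2 fold change of 0.03 against -0.00 over all genes tested. At an unadjusted p under 0.05 there were 22 members, 14 higher and 8 lower (34.9%), against 20.0% of all genes. In all 6 AGR cKO libraries Efna4, Plxna1 and Plxna3 stood above all 6 Cre- libraries, 3 of 63 members against 1.37% of all genes in that direction. No member was lower without overlap, against 1.4% of all genes.

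Efna4 encodes ephrin-A4, a lipid-anchored ligand of EphA receptors (chr3, 89333393 to 89338028, mm10). It stood at 2.90, 2.37 and 2.13 CPM in Cre- control, 2.37, 2.37 and 1.79 in Cre- ESD, 3.32, 3.74 and 3.18 in AGR cKO control and 4.01, 4.56 and 3.23 in AGR cKO ESD. The lowest AGR cKO library was above the highest Cre- library. The log2 fold change was 0.66 ± 0.14 (SE), a 1.58-fold difference (edgeR adjusted p = 0.0279). A single transcript is listed for it, and its exons overlap those of 4731419I09Rik on the opposite strand. Whether counting used the strand is not given in the sources used here, so reads of that pair may not be separated.

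Epha5, an EphA receptor tyrosine kinase for ephrin-A ligands (chr5, 84054761 to 84417818), stood at 47.0, 43.9 and 36.8 CPM in Cre- control and 59.8, 53.1 and 38.1 in Cre- ESD. In AGR cKO control it stood at 66.2, 67.4 and 59.9, and in AGR cKO ESD at 73.5, 81.8 and 55.1. The genotypes overlapped through a single pair, Cre- ESD 1 and AGR cKO ESD 3. The log2 fold change was 0.54 ± 0.12 (edgeR adjusted p = 0.0362). The gene's TPM was divided over 3 transcripts at 1 TPM or more, the leading one with 37.2% of it.

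Epha4, the Eph receptor that binds both ephrin classes and is known as a neuronal partner of astrocytic ephrin (chr1, 77367182 to 77515107), stood at 54.8, 49.0 and 48.8 CPM in Cre- control. It was at 35.6, 41.9 and 25.5 in Cre- ESD, 58.4, 52.8 and 51.5 in AGR cKO control, and 61.2, 54.5 and 60.7 in AGR cKO ESD. All 3 Cre- ESD libraries were below the other 9. The averaged log2 fold change was 0.43 ± 0.10 (edgeR adjusted p = 0.0408). The transcript NM_007936 carried 84.3% of the gene's TPM.

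**Figure D2:**
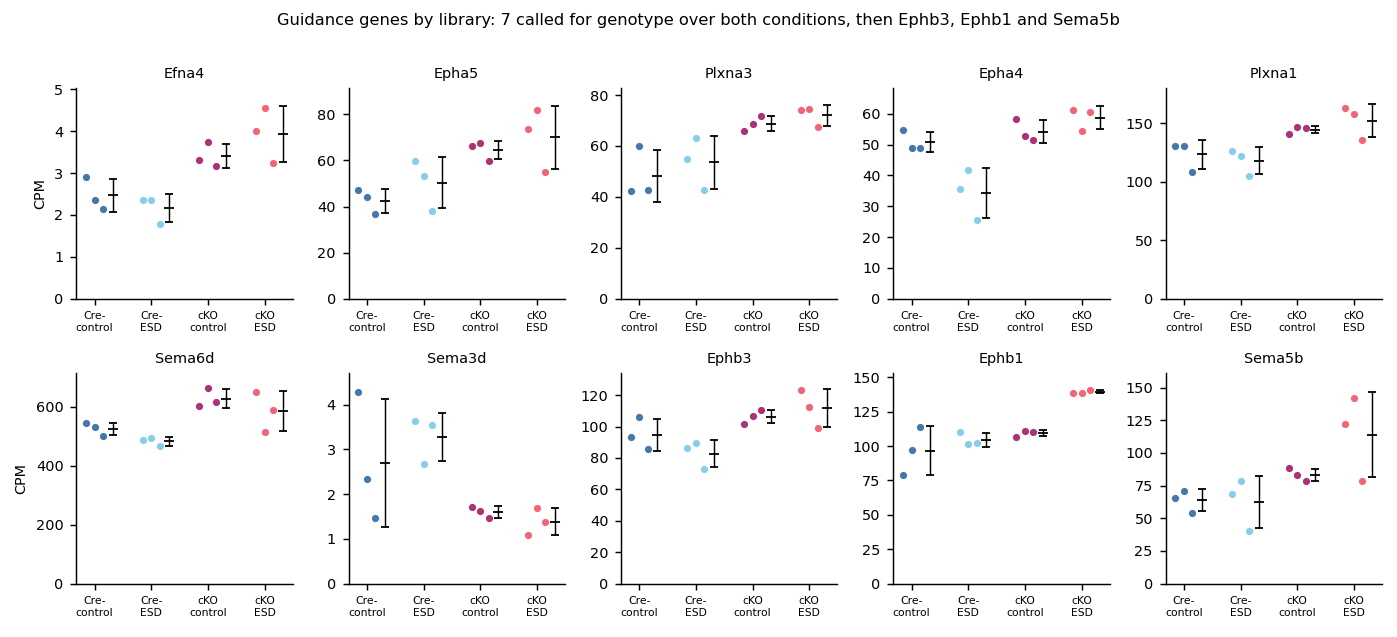
CPM of 10 guidance genes in each library (points), by group, with the mean and SD of 3 libraries (bars). The first 7 are those called for genotype over both rearing conditions, and in the panels of Efna4, Plxna3 and Plxna1 all AGR cKO points lie above all Cre- points.

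Among the semaphorin receptors, Plxna3 (chrX, 74328290 to 74344689), a plexin that signals for secreted semaphorins together with neuropilins, stood at 42.3, 60.0 and 42.5 CPM in Cre- control and 54.9, 63.1 and 42.7 in Cre- ESD. It stood at 66.0, 68.5 and 71.7 in AGR cKO control and 74.1, 74.6 and 67.4 in AGR cKO ESD. The genotypes did not overlap, and the log2 fold change was 0.47 ± 0.11 (edgeR adjusted p = 0.0374).

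Plxna1 (chr6, 89316313 to 89362613), a plexin for secreted semaphorins and for Sema6d, stood at 131, 130 and 109 CPM in Cre- control and 126, 122 and 105 in Cre- ESD. It was at 141, 146 and 146 in AGR cKO control and 163, 158 and 136 in AGR cKO ESD. The lowest AGR cKO library again lay above the highest Cre- library, and the log2 fold change was 0.30 ± 0.07 (edgeR adjusted p = 0.0419). Its exons overlap Gm26811 on the opposite strand. No promoter window was matched for it.

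Its ligand Sema6d (chr2, 124089943 to 124667789) stood at 543, 530 and 502 CPM in Cre- control and 486, 494 and 467 in Cre- ESD. It stood at 602, 663 and 618 in AGR cKO control and 649, 514 and 589 in AGR cKO ESD. A single library, AGR cKO ESD 2, fell inside the Cre- range. The log2 fold change was 0.27 ± 0.06 (edgeR adjusted p = 0.0430). The table lists 38 Sema6d transcripts, 34 of them at 1 TPM or more. The leading one (34.0% of the gene's TPM) starts at 124090063, close behind the first promoter window, and the next 2 (14.1% and 12.5%) start at 124653581, inside the second.

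Sema3d, a secreted semaphorin (chr5, 12383161 to 12588953), is expressed at a low level, 0.971 TPM. It stood at 4.27, 2.34 and 1.48 CPM in Cre- control, 3.62, 2.67 and 3.55 in Cre- ESD, 1.72, 1.63 and 1.46 in AGR cKO control and 1.08, 1.69 and 1.37 in AGR cKO ESD. Cre- control 3 stood within the AGR cKO range and every other Cre- library above it. The log2 fold change was -0.998 ± 0.24 (edgeR adjusted p = 0.0423).

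These 7 calls had adjusted p-values between 0.0279 and 0.0430 and depended on single libraries. None of the 7 passed when AGR cKO control 1, 2 or 3 or AGR cKO ESD 1 was left out. Without AGR cKO ESD 2 only Sema6d passed of the 7, without Cre- control 3 only Sema3d, and without Cre- ESD 3 only Epha4 and Epha5. Without Cre- control 1 or Cre- ESD 1 the same 3 passed (Efna4, Epha5, Plxna1). Without Cre- ESD 2 or AGR cKO ESD 3, 4 of the 7 passed, and 6 without Cre- control 2. The fold changes kept their sign in all 12 of these fits: Efna4 ranged from 0.60 to 0.73, Epha5 from 0.46 to 0.62, Plxna3 from 0.40 to 0.56, Epha4 from 0.35 to 0.52, Plxna1 from 0.26 to 0.35, Sema6d from 0.23 to 0.31 and Sema3d from -1.14 to -0.75. DESeq2 called 14 members, these 7 included, and 9.49% of all genes. The limma-trend test on TPM called 5, against 2.72% of all genes, of which Efna4, Plxna3 and Sema6d were among the 7.

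Markers of several other cell types lay lower in AGR cKO. Those of neurons (7 of 12 higher, median log2 fold change 0.04) and oligodendrocytes (4 of 8 higher, median 0.01) did not. AGR cKO had lower values for 7 of 8 ependymal and choroid plexus genes (median log2 fold change -0.79), and edgeR called 5 of them: Ccdc153, Tmem212, Cfap126, Dynlrb2 and Rarres2. Their summed level was 72.6 to 145 CPM over the Cre- libraries and 55.8 to 98.0 over the AGR cKO libraries. Erythroid markers were lower in 4 of 4 (median -0.99), mural and fibroblast markers in 10 of 10 (median -0.18) and oligodendrocyte precursor markers in 6 of 8 (median -0.44), with 0 called in these lists. All 12 microglial markers were lower in AGR cKO (median log2 fold change -1.13) and all 10 endothelial markers (median -1.04), with 0 called in either list by edgeR. Microglial sums in the Cre- libraries were 326 to 1022 CPM under control rearing and 446 to 768 under ESD, and those in the AGR cKO libraries 187 to 430 and 148 to 408. In a fit with the neuronal and endothelial marker levels as covariates, Efna4 passed (0.74, edgeR adjusted p = 0.0492) and the other 6 did not, with Epha4 at 0.51, Epha5 at 0.58, Plxna3 at 0.43, Plxna1 at 0.31, Sema6d at 0.25 and Sema3d at -0.82. With the microglial marker level as a covariate, an alternative chosen after the data had been seen, none of the 7 passed. Their log2 fold changes in that fit were 0.72 for Efna4, 0.55 for Epha5, 0.49 for Epha4, 0.39 for Plxna3, 0.30 for Plxna1, 0.24 for Sema6d and -0.62 for Sema3d. Microglial and endothelial marker levels lay lower in AGR cKO, so neither fit can fully separate them from genotype.

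Several members close to the threshold showed the same direction as the called receptors without being called. The ephrin-B receptors Ephb3 (0.30 ± 0.08, edgeR adjusted p = 0.0525) and Ephb1 (0.30 ± 0.07, adjusted p = 0.0540) were 2 of the 10 highest members. Ephb6, a kinase-inactive Eph receptor, stood at 0.33 (adjusted p = 0.0688). Of the 5 EphB receptors 4 were higher, with a class median of 0.30, against -0.00 over all genes. The Eph receptors did not move together, as 4 of the 9 EphA receptors were higher and 5 lower, with a median of -0.13. Sema5b, a transmembrane semaphorin with thrombospondin repeats, stood at 65.8, 70.8 and 54.3 CPM in Cre- control, 68.4, 78.8 and 40.5 in Cre- ESD, 88.0, 82.8 and 78.8 in AGR cKO control and 122, 142 and 78.4 in AGR cKO ESD. Its log2 fold change was 0.63 ± 0.17 (edgeR adjusted p = 0.0670), and the genotypes met at Cre- ESD 2, which stood level with AGR cKO control 3 and AGR cKO ESD 3.

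Among the lower members, the secreted semaphorin Sema3f stood at -1.43 ± 0.37 (edgeR adjusted p = 0.0554). Its level was low, 0.766 TPM on average, with 19, 25 and 18 counts in AGR cKO control. It was highest in Cre- control 1, the library with the most endothelial and microglial marker RNA. The 3 Slits stood at -0.68 (Slit2), -0.79 (Slit3) and -0.03 (Slit1), none called. The highly expressed Plxnb1 (0.07 ± 0.08), Plxnb2 (0.07 ± 0.05), Nrp1 (-0.09 ± 0.13) and Robo1 (0.03 ± 0.11) were not called.

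A group of the lower members stood high in the libraries with high endothelial marker sums. It holds Robo4, the Robo of endothelium, the secreted Sema3g and Sema3c, the lipid-anchored Sema7a, Plxnd1, a plexin with a known role in vessels, Epha2 and its ligand Efna1, and was picked after its values were seen. Robo4 stood at 66.5, 13.7 and 24.2 CPM in Cre- control, 43.4, 36.1 and 15.6 in Cre- ESD, 11.2, 15.4 and 27.7 in AGR cKO control and 8.27, 18.4 and 21.6 in AGR cKO ESD. The endothelial sums in the same order were 1934, 338 and 645, then 1064, 878 and 403, then 340, 428 and 729, then 227, 479 and 456 CPM. The 5 libraries with the highest endothelial sum were the 5 highest for Robo4, Sema3c, Sema7a, Plxnd1 and Epha2, and 4 of them were among the 5 highest for Sema3g and Efna1. For Epha4, which was called higher, 1 of the 5 was. Outside the group, 4 of the 5 were also among the 5 highest for Sema3f, Nrp1 and Ephb4, so such agreement is not particular to it. How many of all members show it was not counted. Nor is the order of libraries particular to endothelial markers. Microglial sums were 1022 and 474 CPM in Cre- control 1 and 3, 768 and 536 in Cre- ESD 1 and 2, and 430 in AGR cKO control 3. Every other library had a microglial sum between 148 and 446 CPM. Which marker list these genes follow was not tested.

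**Figure D3:**
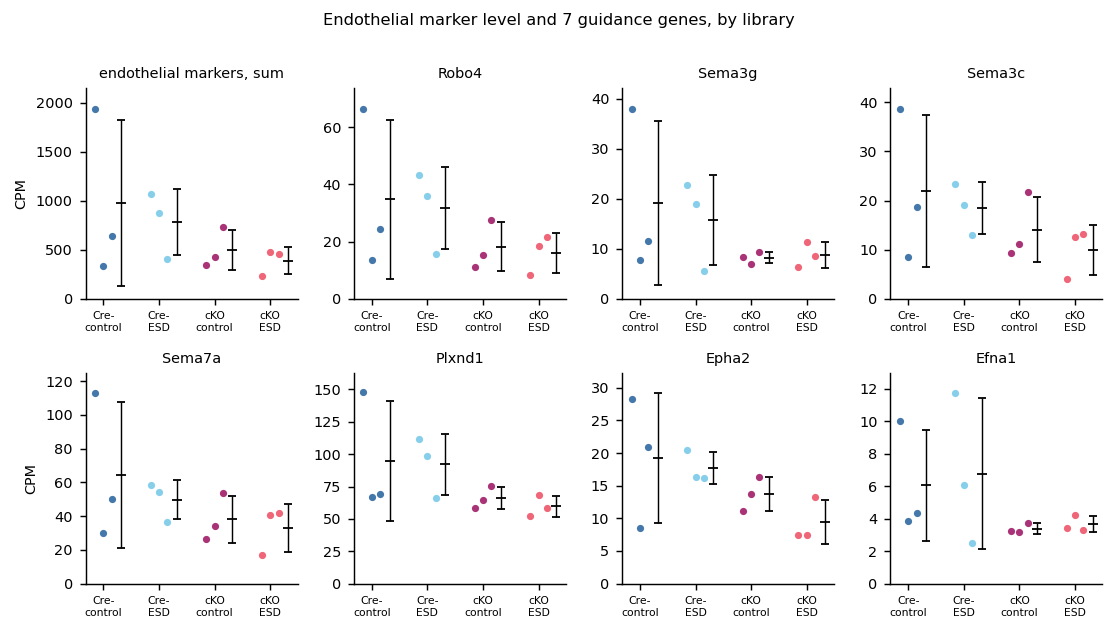
Summed CPM of 10 endothelial markers, over unscaled library totals, and CPM of 7 guidance genes in each library (points), by group, with the mean and SD of 3 libraries (bars). Cre- control 1, the first point, is highest for the marker sum (1934 CPM) and in every gene panel other than Efna1.

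Averaged over rearing, these 7 gave log2 fold changes of -0.96 for Robo4, -1.03 for Sema3g, -0.77 for Sema3c, -0.67 for Sema7a, -0.57 for Plxnd1, -0.70 for Epha2 and -0.86 for Efna1, none called (edgeR adjusted p from 0.137 to 0.297). With the neuronal and endothelial covariates Robo4 stood at 0.02, Sema3c at 0.08 and Sema7a at 0.06, so the sign turned for these 3, and Sema3g stood at -0.03. With the microglial covariate the sign turned for all 7. Neither fit can fully separate genotype from marker levels that lay lower in AGR cKO.

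Under ESD rearing alone, AGR cKO ESD was compared with Cre- ESD. Epha4 was the 1 member called of 63 (1.59%), against 1.04% of all genes. Its CPM rose from 34.3 ± 8.23 (SD, n = 3) to 58.8 ± 3.73, a log2 fold change of 0.78 ± 0.14 (edgeR adjusted p = 0.0353). At an unadjusted p under 0.05 there were 17 members (27.0%), 13 higher and 4 lower, against 15.6% of all genes. Without overlap, 11 were higher in AGR cKO ESD (10.3% of all genes were) and 5 lower (9.64%). The 11 were the ephrins Efna2 and Efna4, the Eph receptors Epha4, Ephb1, Ephb3 and Ephb6, the plexins Plxna1 and Plxna3, and the semaphorins Sema4a, Sema6a and Sema6d.

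After Epha4, the smallest p-values were those of Efna4 (0.85 ± 0.19, edgeR adjusted p = 0.0653) and Ephb3 (0.43 ± 0.11, adjusted p = 0.0871). Ephb3 stood at 86.3, 89.4 and 72.7 CPM in Cre- ESD and 123, 113 and 99.4 in AGR cKO ESD, and under control rearing at 93.0, 106 and 85.6 in Cre- and 102, 107 and 111 in AGR cKO. Ephb1 followed at 0.42 ± 0.11 (adjusted p = 0.0971). The Epha4 call passed with 3 of the 12 libraries left out in turn (Cre- control 1, Cre- control 2 and Cre- ESD 2) and not with any of the other 9, with a fold change between 0.60 and 0.94 and an adjusted p between 0.0276 and 0.128. It did not pass in a fit of only these 2 groups (0.77, adjusted p = 0.161), with the neuronal and endothelial covariates (0.87, adjusted p = 0.169) or with the microglial one (0.83, adjusted p = 0.140). DESeq2 called 8 members, against 4.63% of all genes, and limma-trend on TPM 1, Epha4, against 0.741%.

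In control rearing, AGR cKO control against Cre- control, edgeR called 0 of 63 members, and 0.0157% of all genes. At an unadjusted p under 0.05 there were 10 members (15.9%), 6 higher and 4 lower, against 10.2% of all genes. DESeq2 called 1, Sema3f (1.59% of members, against 1.57% of all genes), and limma-trend 0. The 3 smallest p-values belonged to Sema3f (-1.94 ± 0.53), Epha5 (0.60 ± 0.17) and Plxna3 (0.51 ± 0.15), with edgeR adjusted p-values of 0.262, 0.275 and 0.281.

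Sema3f, a ligand for Nrp2, stood at 0.371, 0.543 and 0.411 CPM in AGR cKO control, below 2.75, 0.773 and 1.57 in Cre- control and without overlap. It was at 1.72, 1.84 and 0.610 in Cre- ESD and 0.582, 1.09 and 0.524 in AGR cKO ESD, where the groups overlapped. Without overlap in control rearing, 10 members were higher (8.54% of all genes were) and 4 lower (8.39%). All 12 neuronal markers were higher in AGR cKO control than in Cre- control (median log2 fold change 0.48, 0 called by edgeR), with sums of 64.6 to 86.9 against 43.1 to 52.5 CPM. With the neuronal and endothelial covariates Epha5 stood at 0.33 and Plxna3 at 0.42 in this comparison.

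**Figure D4:**
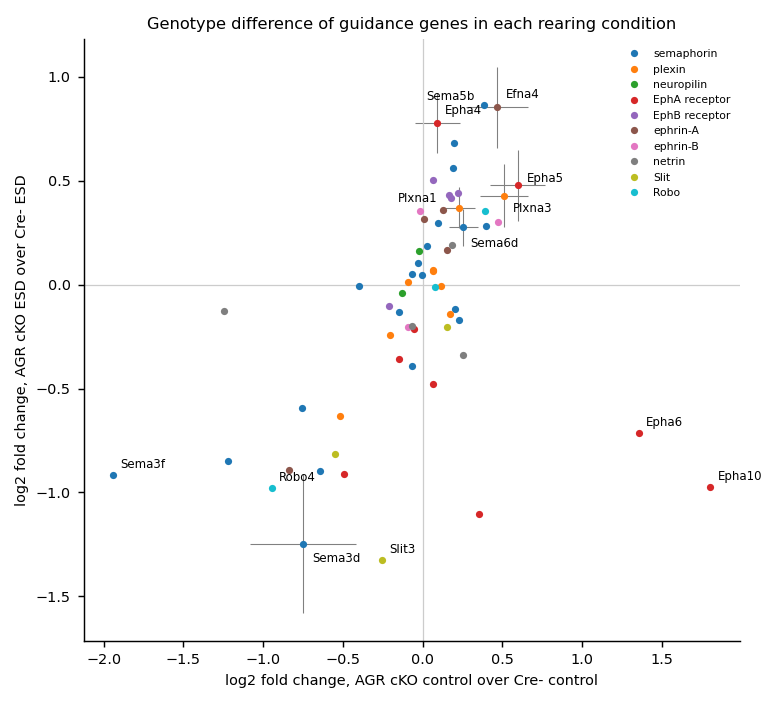
Log2 fold change of AGR cKO over Cre- in control rearing (horizontal) and under ESD (vertical) for the 63 tested guidance genes, coloured by class, with standard errors for the 7 genes called over both. The 2 axes share no library, and Epha4 lies at 0.09 on the horizontal and 0.78 on the vertical axis.

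Early separation was compared within each genotype. In Cre- animals edgeR called 0 of 63 members, and 0.0% of all genes. Unadjusted, 3 members had a p under 0.05 (4.76%), all lower under ESD, against 7.19% of all genes. Both DESeq2 (0.106% of all genes) and limma-trend (0.0%) called 0 members. Of the members 22 were higher and 41 lower, with a median of -0.07 against -0.02 over all genes. The 3 were Epha4 (-0.57 ± 0.14, unadjusted p = 0.00204, edgeR adjusted p = 0.627) and the ephrins Efna5 (-0.64 ± 0.28) and Efna2 (-0.33 ± 0.15), lipid-anchored EphA ligands with an adjusted p of 0.691 each.

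Efna5 stood at 3.01, 3.82 and 5.06 CPM in Cre- control and 2.47, 3.54 and 1.63 in Cre- ESD, where the groups overlapped. Efna2 stood at 13.6, 17.3 and 14.2 in Cre- control and 13.1, 12.7 and 10.2 in Cre- ESD, without overlap. Without overlap, Epha10 alone was higher (4.68% of all genes were), and Efna2, Epha4 and Sema6d were lower (6.39%).

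**Figure D5:**
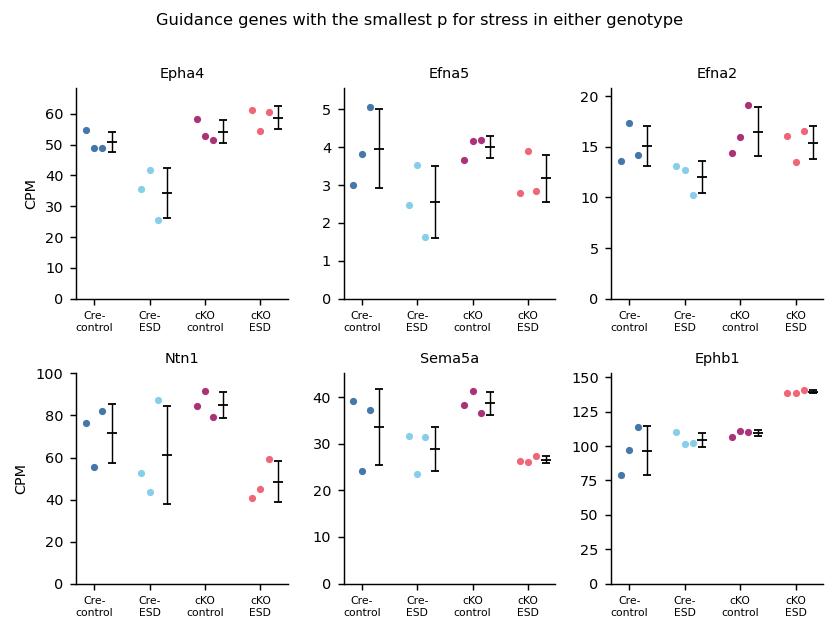
CPM of 6 guidance genes in each library (points), by group, with the mean and SD of 3 libraries (bars). Epha4 lies between 25.5 and 41.9 CPM in Cre- ESD and between 48.8 and 61.2 in the other groups, and Ephb1 between 139 and 141 in AGR cKO ESD.

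In AGR cKO animals edgeR likewise called 0 of 63 members for separation, and 0.0% of all genes. Unadjusted, 5 members had a p under 0.05 (7.94%), against 7.58% of all genes. DESeq2 (0.0717% of all genes) and limma-trend (0.0%) called 0 members here. The smallest p-values were those of Ntn1 (-0.81 ± 0.24), Ephb1 (0.35 ± 0.11) and Sema5a (-0.54 ± 0.16), each with an edgeR adjusted p of 0.647. The others were the EphA receptors Epha6 and Epha1, both under 1 CPM in every library. Without overlap, Ephb1 and Sema4a were higher (7.94% of all genes were) and 7 members lower (8.65%).

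Ntn1, the secreted netrin that attracts or repels axons, stood at 84.3, 91.7 and 79.1 CPM in AGR cKO control and 40.8, 45.0 and 59.5 in AGR cKO ESD. It was at 76.5, 55.7 and 82.3 in Cre- control and 52.7, 43.5 and 87.4 in Cre- ESD, where the groups overlapped. The 6 libraries with the lowest sum of mural and fibroblast markers were also the 6 with the lowest Ntn1. In AGR cKO that sum was 5073 to 5829 CPM under control rearing and 1863 to 4084 under ESD, with 9 of 10 markers lower under ESD. Sema5a, a transmembrane semaphorin with thrombospondin repeats, stood at 38.2, 41.3 and 36.5 CPM in AGR cKO control and 26.4, 26.0 and 27.4 in AGR cKO ESD, and 5 of its 6 lowest libraries were among those 6. In Cre- control it was at 39.1, 24.2 and 37.2, and in Cre- ESD at 31.6, 23.4 and 31.5. The part of the mural markers in these values was not tested.

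Ephb1 stood at 107, 111 and 110 CPM in AGR cKO control and 139, 139 and 141 in AGR cKO ESD, and at 78.9, 97.4 and 114 in Cre- control and 110, 101 and 102 in Cre- ESD. The AGR cKO ESD libraries were above all other 9. The transcript NM_173447 carried 98.6% of its TPM, and its exons overlap Gm26846 on the opposite strand. All 12 neuronal markers were lower in AGR cKO ESD than in AGR cKO control (median -0.76). The fit with neuronal and endothelial covariates called 0 genes in this comparison, as did the fit without covariates. That count therefore cannot bear on Ephb1. The covariate fit takes both marker levels together, so the part of the neuronal markers alone in the Ephb1 value was not tested.

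Averaged over genotypes, edgeR called 0 members for separation, and 0.0% of all genes. Unadjusted, 9 had a p under 0.05 (14.3%), 1 higher and 8 lower, against 10.4% of all genes, while DESeq2 (0.189% of all genes) and limma-trend (0.0%) called 0 members. Sema5a (-0.38 ± 0.12), Ntn1 (-0.52 ± 0.17) and Ephb1 (0.23 ± 0.07) had the smallest p, with an edgeR adjusted p of 0.438 each. No member separated all 6 ESD from all 6 control libraries in either direction, against 0.235% and 0.224% of all genes.

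Whether genotype altered the response to separation was tested as an interaction. EdgeR called 0 of 63 members, and 0.0% of all genes. Unadjusted, 2 members had a p under 0.05 (3.17%), against 4.49% of all genes, and 0 were called by DESeq2 (0.0354% of all genes) or limma-trend (0.0%). Epha4 had the smallest p: its difference of differences was 0.68 ± 0.20 on the log2 scale (unadjusted p = 0.00565, edgeR adjusted p = 0.999). The ESD difference was -0.57 ± 0.14 in Cre- and 0.12 ± 0.14 in AGR cKO, and the genotype difference was 0.09 ± 0.14 in control rearing and 0.78 ± 0.14 under ESD. The 2 pairs of values rest on the same 12 libraries, and the 3 Cre- ESD libraries enter both larger values. Epha10 followed at -2.78 ± 1.24, on at most 17 counts per library. Sema4b came next with 0.39 ± 0.21 (unadjusted p = 0.0811). Sema4b stood at 172, 187 and 153 CPM in Cre- control, 121, 126 and 177 in Cre- ESD, 125, 138 and 126 in AGR cKO control and 150, 119 and 153 in AGR cKO ESD.

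Outside the set, 61 further genes of guidance signalling were described from a list. All were tested. Averaged over rearing, 2 rose and 2 fell with genotype, 4 of 61 against 3.49% of all genes, and all 4 were among the 37 intracellular effectors. Ngef, an exchange factor that acts downstream of EphA receptors, stood at 205, 207 and 228 CPM in Cre- control, 189, 182 and 188 in Cre- ESD, 229, 228 and 233 in AGR cKO control and 252, 267 and 277 in AGR cKO ESD. The genotypes did not overlap, although the highest Cre- and the lowest AGR cKO library both round to 228 CPM, and the log2 fold change was 0.31 ± 0.05 (edgeR adjusted p = 0.00762). Farp1, an exchange factor with a FERM domain, stood at 321, 444 and 399 CPM in Cre- control, 447, 400 and 504 in Cre- ESD, 259, 258 and 282 in AGR cKO control and 241, 231 and 274 in AGR cKO ESD, again without overlap (-0.70 ± 0.09, adjusted p = 0.00473).

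Srgap3, a GTPase-activating protein of the Slit and Robo pathway, rose by 0.37 ± 0.08 (edgeR adjusted p = 0.0327). Mical2, an enzyme that oxidises actin, fell by 0.50 ± 0.10 (adjusted p = 0.0266). The averaged Ngef and Farp1 calls passed with each of the 12 libraries left out in turn. The Mical2 call passed in 7 of these fits and not without Cre- control 3, any AGR cKO control library or AGR cKO ESD 1, with an adjusted p up to 0.0782. That of Srgap3 passed in 6 and not without those 5 or Cre- ESD 3, with an adjusted p up to 0.0829. With the microglial covariate Farp1 alone of the 4 passed. Under ESD alone Ngef (0.51 ± 0.07, adjusted p = 0.0164) and Farp1 (-0.86 ± 0.12, adjusted p = 0.0214) were called. The Ngef call under ESD did not pass without Cre- ESD 1 (adjusted p = 0.0629), and that of Farp1 not without Cre- ESD 1 or 3, AGR cKO control 2 or AGR cKO ESD 1 or 2 (adjusted p up to 0.0807). Neither passed in a fit of only those 2 groups (adjusted p = 0.146).

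Of the 22 co-receptors and other cues, edgeR called 0 for genotype over both rearing conditions, with 4 at an unadjusted p under 0.05, against 20.0% of all genes. Among them the netrin receptors Dcc (0.37 ± 0.15, adjusted p = 0.181) and Unc5c (0.43 ± 0.17, adjusted p = 0.192) were higher without being called. Both sheddases, Adam10 and Adam17, were tested and not called. In control rearing, in both separation comparisons and in the interaction, edgeR called 0 of the 61, with 6, 8, 8 and 3 genes at an unadjusted p under 0.05 for genotype in control, separation in Cre-, separation in AGR cKO and the interaction. Over all genes those shares were 10.2%, 7.19%, 7.58% and 4.49%.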

How the data were processed

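For each of the 12 libraries the authors deposited unnormalized read counts per gene and per transcript. FPKM columns, named so per the file headers, were not used, and the deposited TPM columns served for levels between genes. Per the submitters' processing notes, the tools were StringTie 1.3.4b, HISAT2 2.1.0, DESeq2, Bowtie2, Trimmomatic and HISAT with build mm10, in roles that are not given. Whether counting used the strand is not given in the sources used here. Per the labels' protocols, 1 µg of RNA with an integrity number over 7.0 entered a stranded mRNA kit.

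Groups follow the sample titles. The column names carry cre_M and cre_P, read here as Cre minus and plus, and the numbers in the genotype labels count up with the replicate and were not followed. No 2 libraries of a group held near-identical counts.

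Genes were kept by filterByExpr (19163 genes), scaled with TMM and fitted with the edgeR 4.0.16 quasi-likelihood test in R 4.3.3, with 1 mean per group over all 12 libraries (8 residual degrees of freedom, common biological coefficient of variation 0.1945). The 7 contrasts were tested two-sided, with Benjamini-Hochberg adjustment over all genes and a threshold of 0.05. The code was tested on simulated data for genotype under ESD, with a coefficient of variation of 0.1, below that of the data. CPM of guidance and pathway genes are counts over TMM-scaled library sizes. Those of Nr3c1 and the marker sums are counts over unscaled library totals. The standard error is the log2 fold change over the square root of F. A single gene of 3 against 3 libraries cannot go below p = 0.1 in an exact permutation test. Alternatives were DESeq2 1.42.0, median-of-ratios scaling, no filter on low counts, only the groups compared, a replicate block, each library left out, limma-trend (limma 3.58.1) on log2 of the deposited TPM plus 1 or 0.1, and marker covariates.

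Named are members called in any contrast, the 3 smallest p per contrast, the highest TPM of each class, the 10 highest of all and the lowest members. Others were named after their values were seen. The members, the lists and most tests were chosen with earlier results of these data known. Gene positions are from the deposited transcript table, and exon overlaps are from GENCODE.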

Additional observations from a re-analysis of the deposited data

Results flagged for a closer look

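Epha10, an Eph receptor with an altered kinase domain, differed between the 2 genotype comparisons in opposite directions. All AGR cKO libraries were above all Cre- libraries in control rearing (1.81 ± 0.92 on the log2 scale), and all were below them under ESD (-0.97 ± 0.83). The difference of the 2 was -2.78 ± 1.24 (unadjusted p = 0.0451, edgeR adjusted p = 0.999), so it did not pass the correction. The gene had 6, 0 and 4 counts in Cre- control, 17, 12 and 14 in Cre- ESD, 11, 15 and 12 in AGR cKO control and 11, 11 and 0 in AGR cKO ESD, and its exons overlap 1700125G02Rik on the opposite strand. The value rests on counts at or near the limit that 0 counts allow, and with single libraries left out it lay between -3.44 and -2.23.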

How the results depend on the processing

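Of 71 gene values recomputed under the alternatives, 63 kept their direction in every one. The values that turned were, for genotype over both rearing conditions, Robo4 at 0.0219, Sema3c at 0.0831 and Sema7a at 0.0550 with the neuronal and endothelial covariates. With the microglial covariate, chosen after seeing the data, these were Efna1 at 0.0343, Epha2 at 0.0677, Plxnd1 at 0.0367, Robo4 at 0.53, Sema3c at 0.59, Sema3g at 0.26 and Sema7a at 0.49. For separation in Cre-, Ephb1 stood at -0.0142 without Cre- control 1, and between that and 0.248 over all left-out libraries. The cause of these turns was not tested.

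Members called for genotype over both conditions numbered 7, against 14 by DESeq2, 1 with the neuronal and endothelial covariates, 0 with the microglial one and 0 to 10 with single libraries left out. Under ESD the count of 1 became 8 by DESeq2, 0 in a fit of only the groups compared, 0 with either covariate fit and 0 to 3 with single libraries left out. In control rearing the count of 0 became 1 by DESeq2.

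Over all genes, the 668 called over both conditions became 1711 by DESeq2, 395 and 40 with the 2 covariate fits and 151 to 932 with libraries left out. Under ESD the 200 became 783 by DESeq2, 100 without a filter, 0 in the covariate fits, 0 in a fit of only the groups compared and 2 (without Cre- ESD 1) to 280 (without Cre- control 1) with single libraries left out. In control rearing the 3 became 265 by DESeq2, 31 in a fit of only the groups compared, 0 in the covariate fits and 0 to 63 (without Cre- ESD 3) with libraries left out. For separation the 0 became, by DESeq2, 24 in Cre-, 17 in AGR cKO and 32 over both, and 9 for the interaction.

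Whether the replicate numbers pair the libraries is not settled by the values at hand. Correlations of same-numbered deviations lay between -0.104 and 0.227, with 7 of 18 over 0.1. Of the 12 libraries, 8 correlated best with a library of their own number. With the replicate block 10 members were called over both conditions, 5 of the 7 among them, and 3 under ESD. No fit of only the groups compared was run for averaged contrasts or the interaction, which use all groups. Depth is low for Epha10, with at most 17 counts per library.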
